A study of Mus musculus with 16 samples.

Results

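The 48 mitosis and spindle genes described here are a list of named genes of the G2 and M phases, the kinetochore and the spindle, taken by symbol from the 49585 genes of a count table. Each symbol matched 1 Ensembl gene once version numbers were dropped, and all 48 were among the 12559 genes with enough counts to be tested. The rule of the list is the genes' names and uses no measured value of these cultures. The members were, however, chosen with earlier results of these data known. Their transcripts were counted by bulk RNA sequencing of 16 small intestinal organoid cultures, which are crypts grown in Matrigel into closed epithelial structures with stem, Paneth, goblet, enteroendocrine and absorptive cells. All organoids came from mice with loxP-flanked Atg16l1 on both alleles, a gene needed for autophagy. Those called fl/fl carried no Cre, and those called ΔIEC carried Cre under the villin promoter, which is active in intestinal epithelial cells. The labels call the genotypes WT and KO. Organoids were untreated or treated with recombinant mouse IL-22, a cytokine that acts on epithelial cells through STAT3, at 10 ng/ml for 24 h, which gave 4 groups of 4 cultures. The study states for its mice an age of 8 to 12 weeks and at least 6 generations of backcross to C57BL/6. Each genotype was represented by 2 numbered organoid lines, and each line by 2 cultures without and 2 with IL-22. In what follows replicates 1 and 2 of a group are the first line of its genotype and replicates 3 and 4 the second line. Cultures of a line share their source, so the p-values below measure the spread between cultures of 2 lines, part of which may be technical, and a genotype cannot be told apart from the 2 lines that stand for it. Where organoid line is a block, line differences are taken out. Those p-values measure mainly the spread between cultures within a line.

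The genes of this list are transcribed late in the cell cycle and are low or off in cells that have left it. Their products condense and separate the chromosomes: cyclin B with Cdk1 starts mitosis, Aurora and Polo kinases build the spindle and attach it to the kinetochores, the checkpoint holds the anaphase-promoting complex until every chromosome is attached, and kinesins and centralspindlin divide the cell. In the small intestine most dividing cells are the crypt stem cells and the transit-amplifying cells above them, so in a whole organoid the RNA of these genes follows how many cells are in G2 and M as well as how much each cell makes. In bulk RNA, fewer dividing cells and less RNA per dividing cell cannot be told apart.

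Gene counts of a culture summed to between 2135000 and 5574860. The members had from 13 counts, for Cdc25c, to 2518 counts, for Top2a, in a culture. Atg16l1 itself was counted 91 to 276 times in fl/fl and 1 to 21 times in ΔIEC cultures, so the labels of genotype held in every culture. Of 14 immune and stromal markers, 9 had no more than 3 counts in any culture, among them Ptprc, Cd3e, Col1a1 and Pdgfra, with Cd3e and Dcn at 0 throughout. The 12 stem cell markers summed to 2120 to 2986 CPM (counts scaled to a common library size with edgeR's TMM factors) in untreated and 1232 to 1635 CPM in IL-22–treated cultures. No pair of cultures of a line held identical values. The study's methods name a stranded library protocol and the labels a TruSeq RNA v2 kit, and the strand setting of the counting is not given in the sources used here. If strand was not used, reads in stretches that a member shares with a gene on the other strand cannot be told apart by gene. Such genes are Exosc9 at Ccna2, Elovl1 at Cdc20, Cdc23 at Kif20a, Rccd1 at Prc1 and Pdzd11 at Kif4. Reads that the counting set aside as ambiguous between genes were 0.74% to 1.13% of a culture's total and are in no gene's count. The IL-22–treated cultures of the first ΔIEC line differed most from each other, with a chi-square of 6.82 per gene against 1.34 to 3.20 in the other 7 pairs.

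The members had their lowest levels in IL-22–treated fl/fl organoids and their highest in untreated ΔIEC organoids. Their mean log2 CPM in fl/fl organoids was 5.85 ± 0.30 (SD, n = 4) untreated and 5.25 ± 0.20 with IL-22, and in ΔIEC organoids 6.27 ± 0.049 untreated and 6.05 ± 0.17 with IL-22. Culture by culture, the fl/fl means were 5.52, 5.66, 6.13 and 6.07 untreated and 5.22, 4.97, 5.39 and 5.40 with IL-22, and the ΔIEC means 6.34, 6.26, 6.26 and 6.23 untreated and 6.25, 6.12, 5.84 and 5.99 with IL-22. Each of the 4 IL-22–treated fl/fl cultures lay below every other culture. The 4 untreated ΔIEC cultures lay above every fl/fl culture and overlapped with the IL-22–treated ΔIEC cultures. In untreated fl/fl organoids the lines stood apart: 47 of the 48 members were higher in the second than in the first line, by a median of 0.51 on the log2 scale. In the untreated ΔIEC lines that median was -0.078.

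**Figure D1:**
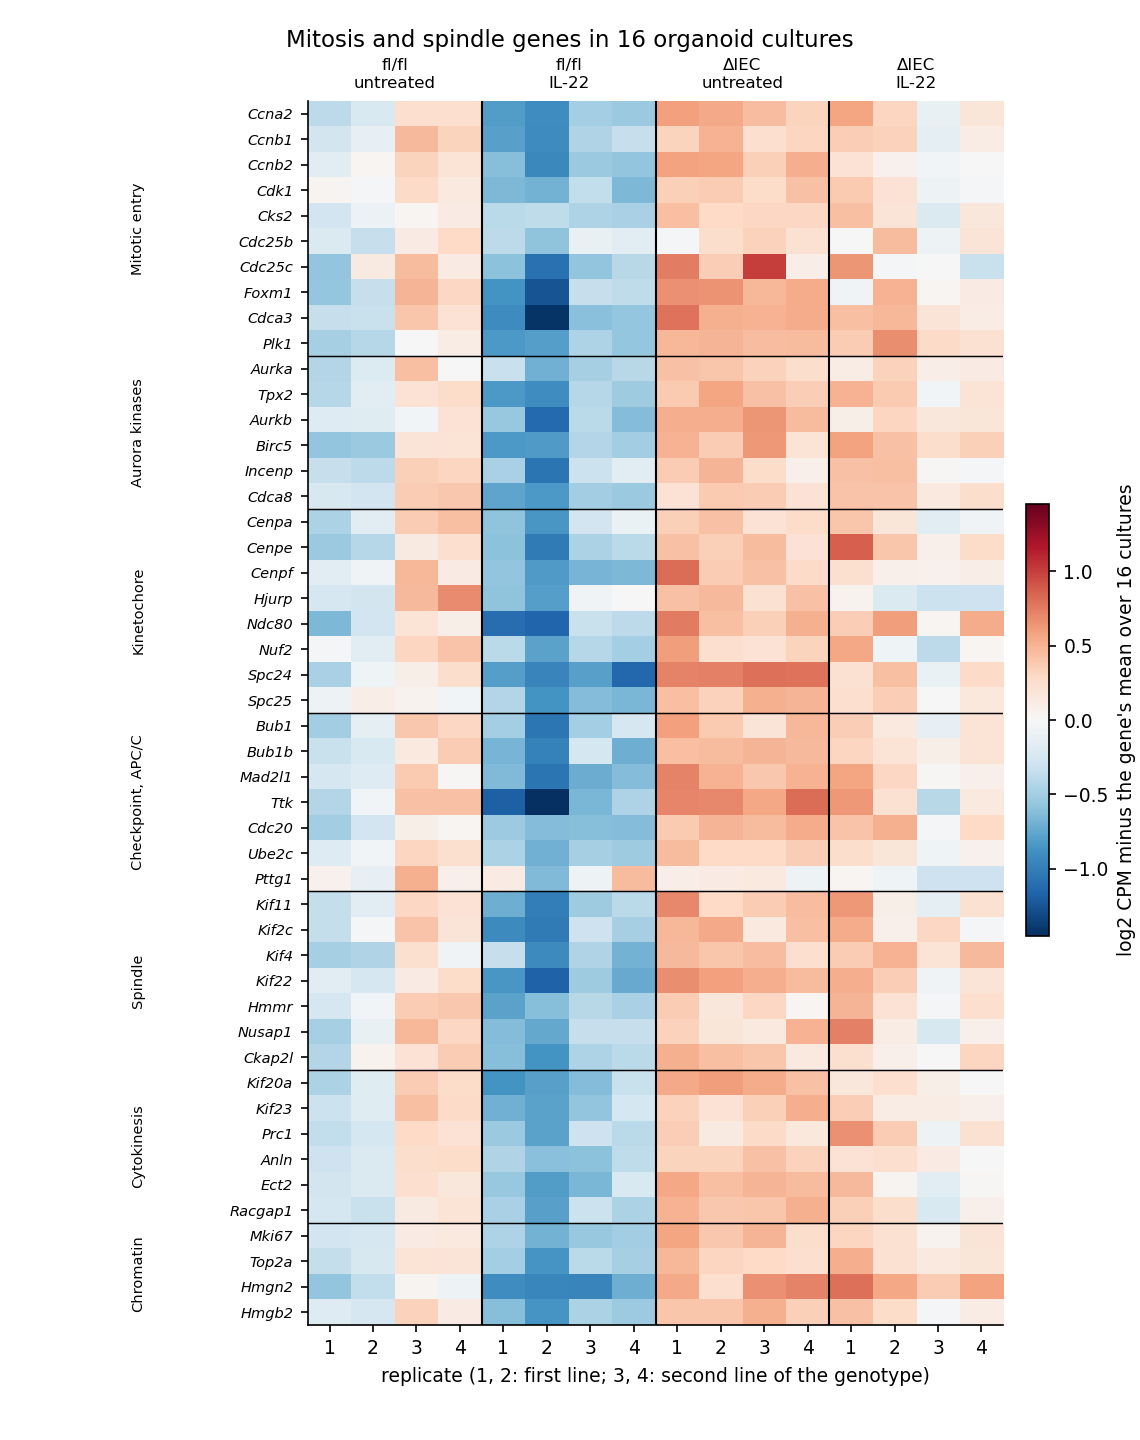
Each row is 1 of the 48 genes in its role class and each column 1 culture, with log2 CPM less the gene's mean over all 16 cultures as colour (blue lower, red higher). In 45 of the 48 rows every IL-22–treated fl/fl column is lower than every IL-22–treated ΔIEC column, and Pttg1 and Hjurp are among the 3 rows where they overlap.

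Genes of this kind are known to carry 2 short sequences near their start, the cell cycle genes homology region (CHR), through which the DREAM and MYBL2–FOXM1 complexes act, and CCAAT boxes, which bind NF-Y. RefSeq promoter windows of 250 bases before to 50 bases after a gene's start (GRCm38.p6) were given for 40 of the 48 members. A CHR, searched as TTTGAA or TTCGAA on either strand, lay in 31 of the 40 (77.5%), against 21.7% of the 27025 genes in that table and 16.5% of the 9290 genes among them that were also tested here. CCAAT on either strand lay in 32 of the 40 (80.0%), against 41.1% of all and 42.9% of tested genes. Both were present in 28 members (70.0%), against 8.61% of all and 6.99% of tested genes. Most of the CHR letters were close to the start, with 29 of the 40 members holding one within 50 bases of it, against 4.54% of tested genes. E2F letters, TTTCCCGC or TTTGGCGC on either strand, were in none of the 40 and in 3.52% of tested genes, and the forkhead letters TGTTTAC were in 2 members and in 3.20% of tested genes. TTCGAA reads the same on both strands and was counted once. A match is a description of the letters and not evidence of binding. The 100 bases before the start are printed here for 6 members that hold both motifs in this stretch and for 2, Mad2l1 and Pttg1, that hold neither in the whole window, since Mad2l1 fell with IL-22 in fl/fl organoids and Pttg1 passed in no comparison. They lie in GRCm38.p6 with Cdk1 at chr10:69352913-69353012 on the minus strand, Cdc20 at chr4:118437344-118437443 on the minus strand, Ube2c at chr2:164769829-164769928 on the plus strand, Kif22 at chr7:127042421-127042520 on the minus strand, Top2a at chr11:99024190-99024289 on the minus strand, Hmgb2 at chr8:57511743-57511842 on the plus strand, Mad2l1 at chr6:66535121-66535220 on the plus strand and Pttg1 at chr11:43425982-43426081 on the minus strand, and are written 5′ to 3′ along the gene with CHR and CCAAT letters of either strand in capitals.
Cdk1: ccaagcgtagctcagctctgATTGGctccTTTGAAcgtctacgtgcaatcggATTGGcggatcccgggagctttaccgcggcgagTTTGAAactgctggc
Cdc20: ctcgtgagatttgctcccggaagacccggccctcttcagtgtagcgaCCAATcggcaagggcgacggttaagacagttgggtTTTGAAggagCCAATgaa
Ube2c: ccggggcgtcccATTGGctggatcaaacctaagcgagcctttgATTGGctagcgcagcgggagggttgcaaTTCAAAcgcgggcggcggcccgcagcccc
Kif22: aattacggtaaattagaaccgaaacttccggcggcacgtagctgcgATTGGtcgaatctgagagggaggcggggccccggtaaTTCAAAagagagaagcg
Top2a: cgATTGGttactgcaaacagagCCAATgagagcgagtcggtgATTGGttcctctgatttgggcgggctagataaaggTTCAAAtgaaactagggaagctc
Hmgb2: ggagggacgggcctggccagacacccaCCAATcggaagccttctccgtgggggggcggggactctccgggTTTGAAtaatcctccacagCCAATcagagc
Mad2l1: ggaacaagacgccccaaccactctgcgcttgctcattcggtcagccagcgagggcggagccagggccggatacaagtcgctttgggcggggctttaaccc
Pttg1: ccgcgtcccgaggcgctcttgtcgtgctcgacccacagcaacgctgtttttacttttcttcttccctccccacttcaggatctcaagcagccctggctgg

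In each of the 6 printed members that hold both, a CHR began 15 to 30 bases before the start, with a CCAAT box upstream of it. In Cdk1, which has a further CHR at 71, it began at 15, in Kif22 at 17, in Cdc20 at 18, in Top2a at 23, in Ube2c at 29 and in Hmgb2 at 30 bases before the start. Kif11, Ckap2l and Prc1, not printed, also held both in this stretch. In many other members the only CHR of the window lay after the start, as in Plk1 (base 31), Aurka (33), Cdca8 (14) and Ttk (8). The 6 do not stand for the position in the list. The members with neither motif in their window were Birc5, Nuf2, Mad2l1, Pttg1 and Nusap1, 5 of 40 (12.5%), against 48.8% of tested genes.

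Most of the mitosis and spindle genes fell with IL-22 in fl/fl organoids. Of the 48 members, 30 passed an adjusted p of 0.01 in edgeR's quasi-likelihood test (Benjamini-Hochberg over all 12559 genes) and all 30 fell, while none rose. Among all tested genes 10.2% fell and 10.6% rose past the same threshold. The median log2 fold change of the members was -0.64, with all 48 below 0, against a median of -0.045 over all genes, of which 55.3% were below 0. At an unadjusted p under 0.05, 46 were lower, against 22.5% of all genes. The largest decreases were those of Ttk, a kinase of the spindle checkpoint (-1.04 ± 0.24, SE), Spc24 of the NDC80 complex (-0.92 ± 0.16) and Cdca3, a mitotic entry factor (-0.86 ± 0.18), and the smallest was that of Pttg1, securin (-0.15 ± 0.22). For 25 members the 4 treated cultures all lay below the 4 untreated cultures, against 15.4% of all genes. With organoid line as a block, which the labels allow because each line was cultured with and without IL-22, 45 members fell, against 15.6% of all genes, and only Cdc25b, Cdc25c and Pttg1 did not pass. The count depended on single cultures and lines: it was 17 without untreated fl/fl replicate 4 (7.86% of all genes fell in that fit), 18 when replicate 2 of the treated fl/fl cultures was dropped (7.44%), and 9 without the second fl/fl line (3.86%). With the 2 cultures of a line summed, which leaves 2 sums a group, none passed in edgeR, and 1.35% of all genes fell.

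In ΔIEC organoids 2 of the 48 members passed with IL-22. Ccnb2, a B-type cyclin (-0.46 ± 0.11, adjusted p = 0.00278, edgeR), and Spc24 (-0.55 ± 0.14, adjusted p = 0.00604) fell, and no other member passed in either direction. Among all tested genes 7.65% fell and 9.83% rose. The median over the members was -0.23, with 43 of 48 below 0, against -0.0073 over all genes, of which 50.9% were below 0. At an unadjusted p under 0.05, 16 were lower and none higher, against 18.5% of all genes lower. The values ran from -0.58 ± 0.19 for Hjurp, the chaperone that loads Cenpa onto centromeres, to 0.079 ± 0.15 for Prc1, a crosslinker of spindle midzone microtubules. In 11 members the 4 treated cultures lay below the 4 untreated ones, against 13.2% of all genes. With organoid line as a block 11 members fell, against 11.7% of all genes: Ccnb2, Spc24, Foxm1, Cdca3, Aurkb, Cenpf, Hjurp, Ttk, Kif20a, Ect2 and Racgap1. No member passed without the first ΔIEC line, where 3.62% of all genes fell, or without the second, where 3.23% did, and leaving out single cultures gave 0 to 3, with 0 without untreated ΔIEC replicate 1 or 2 or treated ΔIEC replicate 3 or 4.

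**Figure D2:**
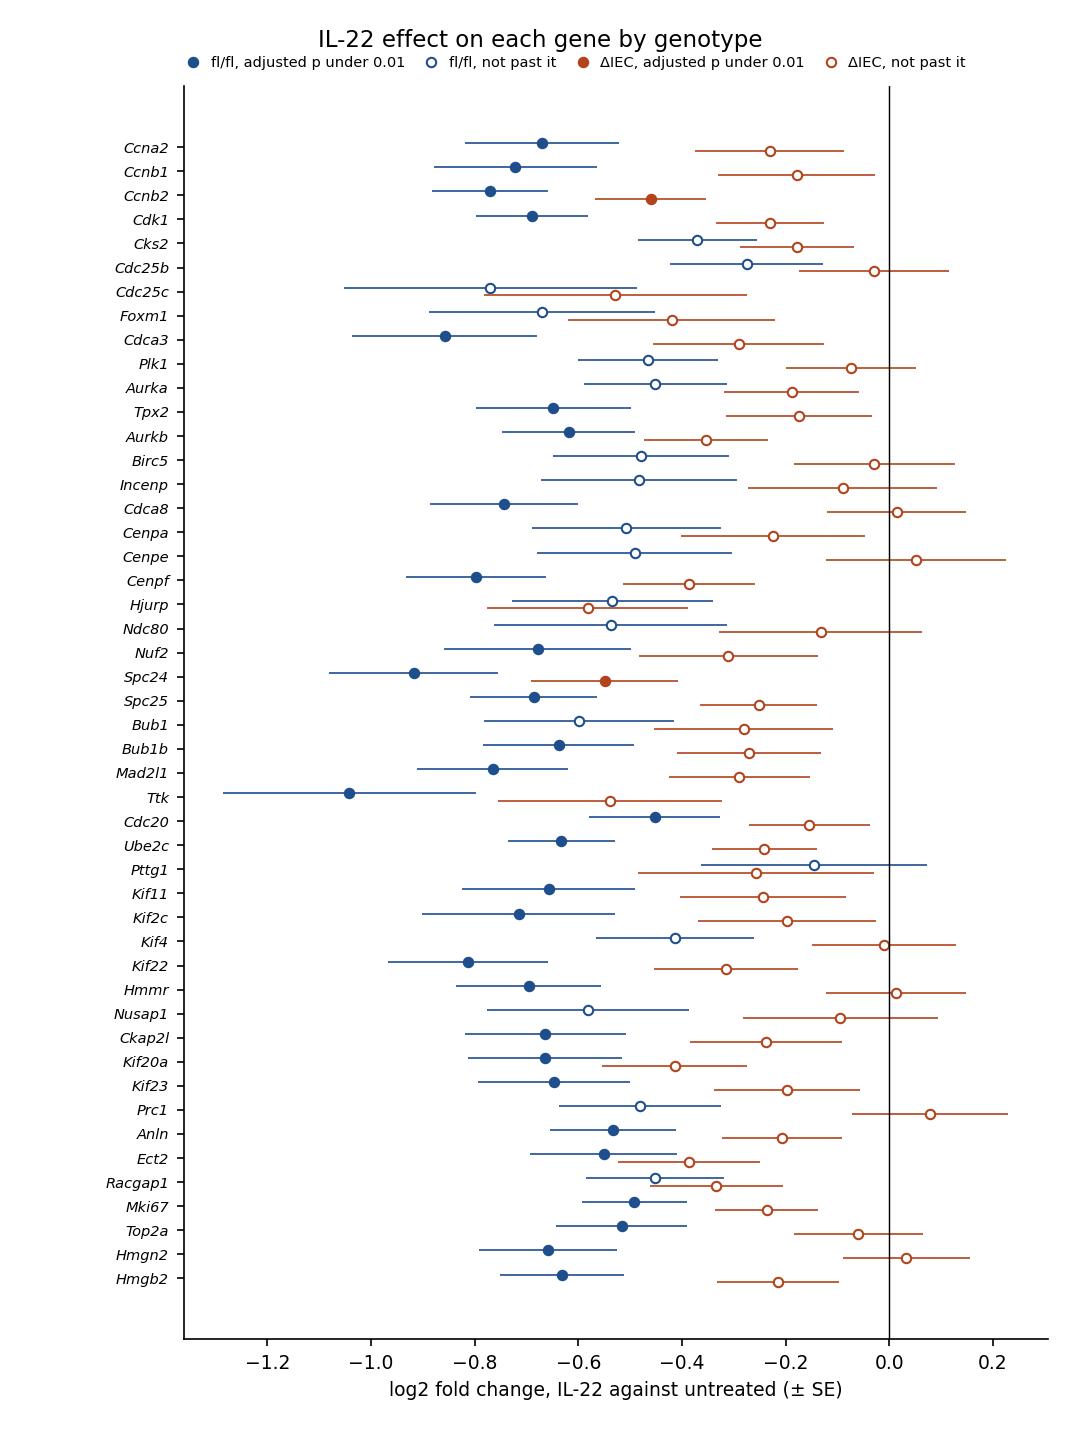
The log2 fold change of IL-22 against untreated, with its standard error, is drawn for each of the 48 genes in fl/fl and ΔIEC organoids, told apart by colour, filled where the adjusted p is under 0.01. The fl/fl points sit between -1.04 and -0.15 and the ΔIEC points between -0.58 and 0.079, to the right of the fl/fl point in 46 of 48 genes.

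Whether the response differed between genotypes was tested by the interaction of genotype and IL-22, for which positive values mean a smaller decrease in ΔIEC organoids. None of the 48 members passed an adjusted p of 0.01 in edgeR in either direction, where the background was 0.00796% of genes in each direction, 1 gene of 12559. None passed in limma-voom with duplicateCorrelation on the line, where 2 of 12559 genes were higher and 3 lower. With the cultures of a line summed, no member passed, nor did any of the 13871 genes tested. No member passed in DESeq2, which gave an adjusted p to 2478 genes (4 higher and 10 lower). A member without an adjusted p could not pass there. The interaction was above 0 in 46 members, against 54.8% of all genes, and Hjurp (-0.048 ± 0.27) and Pttg1 (-0.11 ± 0.31) were below 0. Its median was 0.40 over the members against 0.025 over all genes. At an unadjusted p under 0.05 there were 19 members, all positive, against 4.28% of all genes in that direction. With organoid line as a block 4 members passed, against 0.119% of all genes: Cdca8, a subunit of the chromosomal passenger complex (0.77 ± 0.12, adjusted p = 0.00062), Hmmr, a spindle assembly factor (0.72 ± 0.14, adjusted p = 0.0037), Hmgn2, a nucleosome-binding protein (0.70 ± 0.14, adjusted p = 0.00907), and Ccnb1, cyclin B1 (0.57 ± 0.12, adjusted p = 0.00929). These p-values rest mainly on the spread between cultures of the same line, while 2 lines stand for each genotype. All 4 fell in both fl/fl lines. In the first and second ΔIEC line the changes were 0.12 and -0.094 for Cdca8 and 0.087 and -0.052 for Hmmr. They were 0.29 and -0.22 for Hmgn2 and -0.071 and -0.29 for Ccnb1. In the fit without the block but also without the filter on low counts, Cdca8, Hmmr and Hmgn2 passed, against 0.122% of all genes.

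Without IL-22, ΔIEC organoids had more of these transcripts than fl/fl organoids, at a threshold that 11 members passed. They were Spc24 (0.80 ± 0.14), Hmgn2 (0.78 ± 0.13), Plk1 (0.66 ± 0.13), Cdc20 (0.63 ± 0.12), Kif4, Aurkb, Kif22, Mad2l1, Racgap1, Mki67 and Ccnb2, all 11 higher in ΔIEC, against 3.78% of all genes higher and 5.98% lower. At an unadjusted p under 0.05, 35 were higher, against 15.1% of all genes. Of the 48 members 47 were above 0, against 47.7% of all genes, and Pttg1 was the exception (-0.052 ± 0.22). The median was 0.43 against -0.020 over all genes. In 24 members the 4 ΔIEC cultures lay above the 4 fl/fl cultures, against 10.6% of all genes. The comparison depended on the fl/fl lines: without the first no member passed, the median was 0.20 and 0.856% of all genes were higher, and without the second fl/fl line 36 passed, the median was 0.69 and 5.4% of all genes were higher. Without the first ΔIEC line 2 passed, against 0.979% of all genes, and without the second 5 passed, against 2.03%. Among single cultures the count was 4 without untreated fl/fl replicate 2, 5 without replicate 1 and 18 without replicate 3, and 5, 6, 7 and 7 without untreated ΔIEC replicates 1 to 4 in turn, while the share of all genes higher ran from 1.70% to 4.51% over the 16 fits without a single culture. Taking each line's mean, both ΔIEC lines lay above both fl/fl lines in 33 members, against 25.8% of all genes.

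With IL-22 the genotypes differed most. Of the 48 members 42 were higher in ΔIEC than in fl/fl organoids and none was lower, against 9.91% of all genes higher and 9.84% lower. The median was 0.81 on the log2 scale against 0.0072 over all genes, from -0.16 ± 0.23 for Pttg1 to 1.48 ± 0.13 for Hmgn2. The 6 that did not pass were Cdc25b (0.46 ± 0.15, adjusted p = 0.021, edgeR), Cdc25c (0.81 ± 0.28, 0.0336), Nuf2 (0.59 ± 0.18, 0.0173), Cenpa (0.53 ± 0.18, 0.0325), Hjurp (0.13 ± 0.20, 0.652) and Pttg1 (0.611). In 45 members the 4 ΔIEC cultures lay above the 4 fl/fl cultures, against 15.4% of all genes, and in 46 the means of both ΔIEC lines lay above those of both fl/fl lines, against 31.5%. Of the 42, 29 also fell with IL-22 in fl/fl organoids. All 11 that differed without IL-22 were among the 42. With 42 of 48 members passing, such overlaps are not a separate result about the members. The comparison of genotypes under IL-22 shares the IL-22–treated fl/fl cultures with the IL-22 effect in fl/fl organoids, and its lines with the comparison without IL-22. The count stayed at 38 to 43 when a single culture was left out, and was 20 without the first ΔIEC line, against 3.11% of all genes, and 2 after summing the cultures of each line, against 0.404%.

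**Figure D3:**
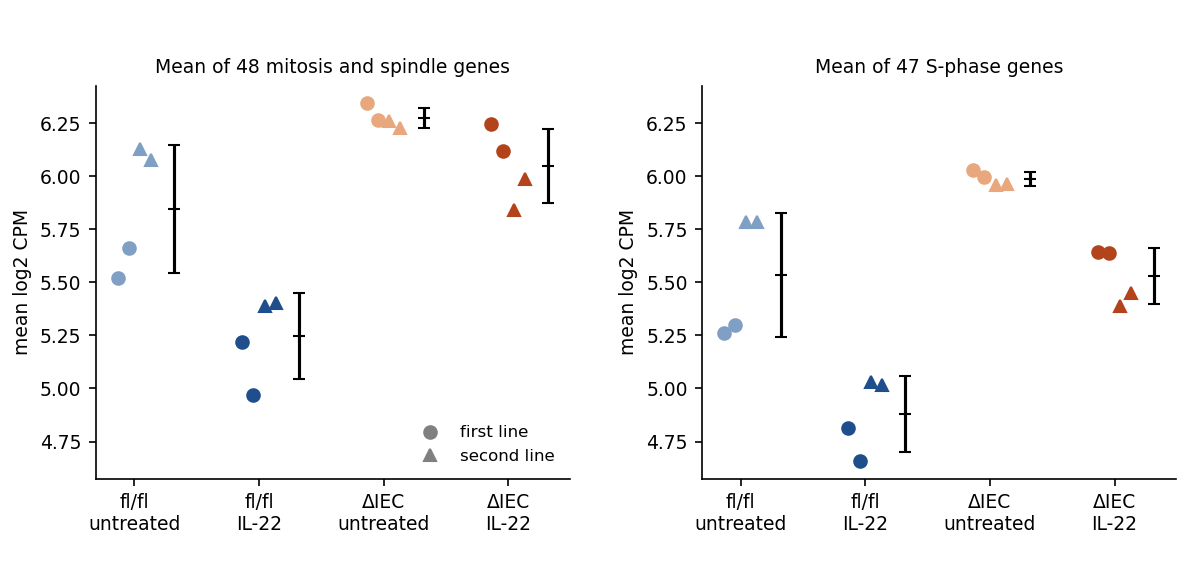
Mean log2 CPM of the 48 mitosis and spindle genes (left) and of 47 S-phase genes (right) in each culture, with circles for the first and triangles for the second line of a genotype and bars for mean ± SD of 4 cultures. The group means of the mitosis genes were 5.85 and, with IL-22, 5.25 in fl/fl and 6.27 and, with IL-22, 6.05 in ΔIEC organoids, and those of the S-phase genes 5.53, 4.88, 5.99 and 5.53.

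Of the 10 members that bring the cell into mitosis, 5 fell with IL-22 in fl/fl organoids (median -0.68) while 8 were higher in ΔIEC than fl/fl organoids under IL-22 (median 0.79). For this and the role classes below, the shares of all tested genes were 10.2% lower with IL-22 in fl/fl organoids and 9.91% higher in ΔIEC under IL-22. Plk1, the Polo-like kinase (ENSMUSG00000030867.7, chromosome 7 from 122159439 to 122169873, plus strand of GRCm38), was at 51.7, 54.1, 72.5 and 78.4 CPM in the 4 untreated and 40.4, 41.4, 53.1 and 48.8 CPM in the 4 IL-22–treated fl/fl cultures. In ΔIEC organoids it was at 102, 102, 98.9 and 100.1 CPM untreated and 93.97, 116, 88.2 and 84.5 CPM with IL-22. Each ΔIEC culture was above each fl/fl culture, and the treated and untreated cultures overlapped within both genotypes. Plk1 was 1.58-fold higher in ΔIEC without IL-22 (0.66 ± 0.13, adjusted p = 0.0016) and 2.07-fold higher with it (1.05 ± 0.13, adjusted p = 1.31e-05). The IL-22 effect in fl/fl organoids (-0.47 ± 0.13) had an adjusted p of 0.0118, and of 7.73e-05 with line as a block. Cdk1, the kinase partner of cyclin B, was at 83.9, 79.9, 99.3 and 90.1 CPM and, with IL-22, 51.5, 50.2, 63.6 and 51.5 CPM in fl/fl cultures. In ΔIEC cultures it was at 104, 106, 98.5 and 110.1 CPM and, with IL-22, 107, 94.3, 77.4 and 79.6 CPM. The 4 treated fl/fl cultures were the lowest of the 16. It fell by 0.69 ± 0.11 in fl/fl organoids (adjusted p = 6.58e-05), with -0.23 ± 0.10 in ΔIEC organoids (adjusted p = 0.109).

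Cdca3, which triggers the destruction of the Cdk1 inhibitor Wee1, had 51.7, 52.3, 86.6 and 75.97 CPM in untreated and 34.4, 24.1, 42.6 and 44.05 CPM in treated fl/fl cultures. It had 114, 93.8, 92.9 and 95.1 CPM in untreated and 88.7, 91.5, 74.3 and 70.6 CPM in treated ΔIEC cultures. No treated culture of either genotype reached the untreated cultures of its own genotype. The decrease was 0.86 ± 0.18 in fl/fl organoids (adjusted p = 0.00103), and in ΔIEC organoids the value was -0.29 ± 0.17 (adjusted p = 0.21, and 0.0096 with line as a block). Foxm1, the forkhead factor that drives transcription of many of these genes, stood at 23.7, 27.8, 49.9 and 43.6 CPM and, with IL-22, 19.00, 14.5, 27.8 and 27.3 CPM in fl/fl cultures. It stood at 56.1, 55.6, 49.5 and 51.5 CPM and, with IL-22, 34.02, 50.3, 35.96 and 38.5 CPM in ΔIEC cultures. Its second fl/fl line was close to the untreated ΔIEC cultures and its first line was not. It was 1.79-fold higher in ΔIEC under IL-22 (0.84 ± 0.22, adjusted p = 0.00579), and its adjusted p for the IL-22 effect in fl/fl organoids was 0.0235, or 1.63e-05 with line as a block. The cyclins Ccna2 (-0.67 ± 0.15), Ccnb1 (-0.72 ± 0.16) and Ccnb2 (-0.77 ± 0.11) fell in fl/fl organoids. Cks2 (-0.37 ± 0.11), which binds Cdk1, and the phosphatases Cdc25b (-0.28 ± 0.15) and Cdc25c (-0.77 ± 0.28) did not pass.

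The Aurora kinases and their partners number 6 here, of which 3 fell with IL-22 in fl/fl organoids (median -0.55) and all 6 were higher in ΔIEC organoids under IL-22 (median 0.88). Cdca8, or borealin (ENSMUSG00000028873.16, chromosome 4 from 124918465 to 124939311, minus strand), was at 51.7, 50.3, 79.3 and 80.2 CPM in untreated and 35.6, 33.9, 42.8 and 41.9 CPM in treated fl/fl cultures. Its ΔIEC values were 70.7, 79.5, 79.2 and 71.02 CPM untreated and 81.4, 81.8, 67.4 and 73.2 CPM treated. The treated fl/fl cultures were the lowest and did not overlap with any other group, while the 2 ΔIEC groups covered the same range. Cdca8 fell by 0.74 ± 0.14 in fl/fl organoids (adjusted p = 0.000476), and its log2 fold change in ΔIEC organoids was 0.014 ± 0.13 (adjusted p = 0.955). It was 1.96-fold higher in ΔIEC under IL-22 (adjusted p = 4.99e-05). Aurkb, the kinase of the same complex, was at 53.2, 53.3, 58.9 and 70.1 CPM and, treated, 41.2, 27.3, 45.99 and 38.95 CPM in fl/fl cultures. In ΔIEC cultures its level was 87.2, 87.4, 94.9 and 83.1 CPM and, treated, 63.99, 74.99, 67.7 and 68.6 CPM. Treated cultures were below untreated ones in both genotypes. The values were -0.62 ± 0.13 in fl/fl (adjusted p = 0.000969) and -0.35 ± 0.12 in ΔIEC organoids (adjusted p = 0.0334, and 0.00321 with line as a block). Birc5, survivin, was at 31.3, 32.2, 53.5 and 54.03 CPM and, treated, 26.1, 26.2, 34.7 and 32.96 CPM in fl/fl cultures. It was at 66.7, 60.5, 72.8 and 53.99 CPM and, treated, 70.9, 63.3, 55.9 and 59.9 CPM in ΔIEC cultures. The genotypes did not overlap under IL-22, where Birc5 was 2.06-fold higher in ΔIEC (1.04 ± 0.16, adjusted p = 0.000113). Aurka (0.66 ± 0.14), its activator Tpx2 (0.92 ± 0.15) and the scaffold Incenp (0.70 ± 0.19) were also higher there.

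Of the 8 members at the centromere and kinetochore, 4 fell with IL-22 in fl/fl organoids and 5 were higher in ΔIEC organoids under IL-22 (medians -0.61 and 0.84). Spc24 (ENSMUSG00000074476.6, chromosome 9 from 21755442 to 21760303, minus strand) was at 14.6, 19.7, 21.8 and 24.6 CPM in untreated and 11.5, 10.3, 11.6 and 8.99 CPM in treated fl/fl cultures. In ΔIEC it was at 34.2, 34.5, 36.2 and 35.7 CPM in untreated and 23.9, 27.8, 19.04 and 24.9 CPM in treated cultures. Treated cultures were below untreated ones in each genotype, and ΔIEC cultures were above fl/fl cultures within each treatment. It was 1 of the 2 members that fell in both genotypes, by 0.92 ± 0.16 and 0.55 ± 0.14 (adjusted p = 0.000228 and 0.00604). Its partner Spc25 was at 21.9, 24.8, 24.03 and 22.5 CPM and, treated, 17.03, 12.4, 14.6 and 14.4 CPM in fl/fl, and at 31.4, 29.3, 33.4 and 32.8 CPM and, treated, 27.5, 29.8, 22.97 and 25.8 CPM in ΔIEC cultures. It fell by 0.69 ± 0.12 in fl/fl organoids (adjusted p = 0.000259). Cenpf, a large protein of the outer kinetochore, was at 43.5, 46.96, 68.5 and 52.97 CPM and, treated, 32.5, 27.3, 30.2 and 30.9 CPM in fl/fl cultures. Its level was 85.8, 62.99, 65.9 and 59.4 CPM and, treated, 57.5, 51.4, 50.8 and 52.1 CPM in ΔIEC cultures. Treated cultures lay below untreated ones in both genotypes, with -0.80 ± 0.14 in fl/fl (adjusted p = 0.000152) and -0.39 ± 0.13 in ΔIEC organoids (adjusted p = 0.0281, and 0.00502 with line as a block). The motor Cenpe (1.03 ± 0.18) and Ndc80 (1.11 ± 0.21) were higher in ΔIEC under IL-22. Cenpa, the centromeric histone, and Nuf2 were not past the threshold there. Hjurp had 110.5, 108, 182 and 212 CPM and, treated, 87.1, 75.02, 127 and 132 CPM in fl/fl, and 177, 182, 153 and 177 CPM and, treated, 136, 114, 106 and 106 CPM in ΔIEC cultures. Hjurp and Pttg1 are given in full because they differed from the other members, a choice made after their values were seen. The IL-22 effect on Hjurp was -0.53 ± 0.19 in fl/fl and -0.58 ± 0.19 in ΔIEC organoids, with an interaction of -0.048 ± 0.27 and adjusted p of 0.0408 and 0.03, or 8.76e-07 and 2.73e-07 with line as a block.

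Of the 7 members of the spindle checkpoint and the anaphase-promoting complex pathway, 5 fell with IL-22 in fl/fl organoids and 6 were higher in ΔIEC organoids under IL-22 (medians -0.63 and 0.82). Cdc20, the activator of the complex (ENSMUSG00000006398.15, chromosome 4 from 118432901 to 118437352, minus strand), was at 43.8, 51.3, 66.2 and 63.7 CPM in untreated and 43.2, 39.96, 40.4 and 40.1 CPM in treated fl/fl cultures. Untreated ΔIEC cultures had 81.1, 88.1, 86.1 and 90.96 CPM and treated ones 83.4, 89.8, 61.3 and 76.4 CPM. All 4 untreated ΔIEC cultures were above the untreated fl/fl cultures, and all treated ΔIEC cultures were above the treated fl/fl cultures. The difference was 1.55-fold (0.63 ± 0.12, adjusted p = 0.00133) without and 1.90-fold (0.93 ± 0.12, adjusted p = 2.19e-05) with IL-22. The IL-22 effect on Cdc20 in fl/fl organoids (-0.45 ± 0.13, adjusted p = 0.00919) lay close to the threshold and no longer passed with RLE scaling or without most single cultures. Elovl1, on its other strand, had up to 888 counts in a culture. Mad2l1, which holds Cdc20 inactive, was at 57.3, 59.5, 88.4 and 68.5 CPM and, treated, 43.2, 32.3, 40.9 and 43.7 CPM in fl/fl cultures. In ΔIEC cultures it was at 112, 96.2, 89.3 and 96.4 CPM and, treated, 101, 83.8, 68.6 and 71.5 CPM. Its treated fl/fl cultures lay apart from all the others, with a decrease of 0.76 ± 0.15 (adjusted p = 0.000456). Ube2c, the ubiquitin-conjugating enzyme of the complex, was at 109, 120.2, 154 and 146 CPM and, treated, 89.9, 75.96, 88.2 and 86.6 CPM in fl/fl cultures. It was at 171, 152, 152 and 159 CPM and, treated, 148, 141, 119 and 129.9 CPM in ΔIEC cultures. It fell by 0.63 ± 0.10 in fl/fl organoids (adjusted p = 0.000101), with -0.24 ± 0.10 in ΔIEC organoids (adjusted p = 0.0822). The checkpoint kinases Bub1 (0.71 ± 0.18) and Ttk (1.09 ± 0.24) and the pseudokinase Bub1b (0.82 ± 0.15) were higher in ΔIEC under IL-22.

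Pttg1, which binds and inhibits separase, passed in none of the comparisons. It was at 8.77, 7.66, 12.2 and 8.83 CPM and, treated, 9.11, 5.14, 7.88 and 11.7 CPM in fl/fl cultures, and at 8.96, 9.10, 9.25 and 7.89 CPM and, treated, 8.51, 7.95, 6.65 and 6.66 CPM in ΔIEC cultures. All 4 groups overlapped. The adjusted p was 0.653 and 0.446 for IL-22 in fl/fl and ΔIEC organoids and 0.899 and 0.611 for genotype without and with IL-22. The standard errors of these effects were 0.22 to 0.23 on the log2 scale.

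**Figure D4:**
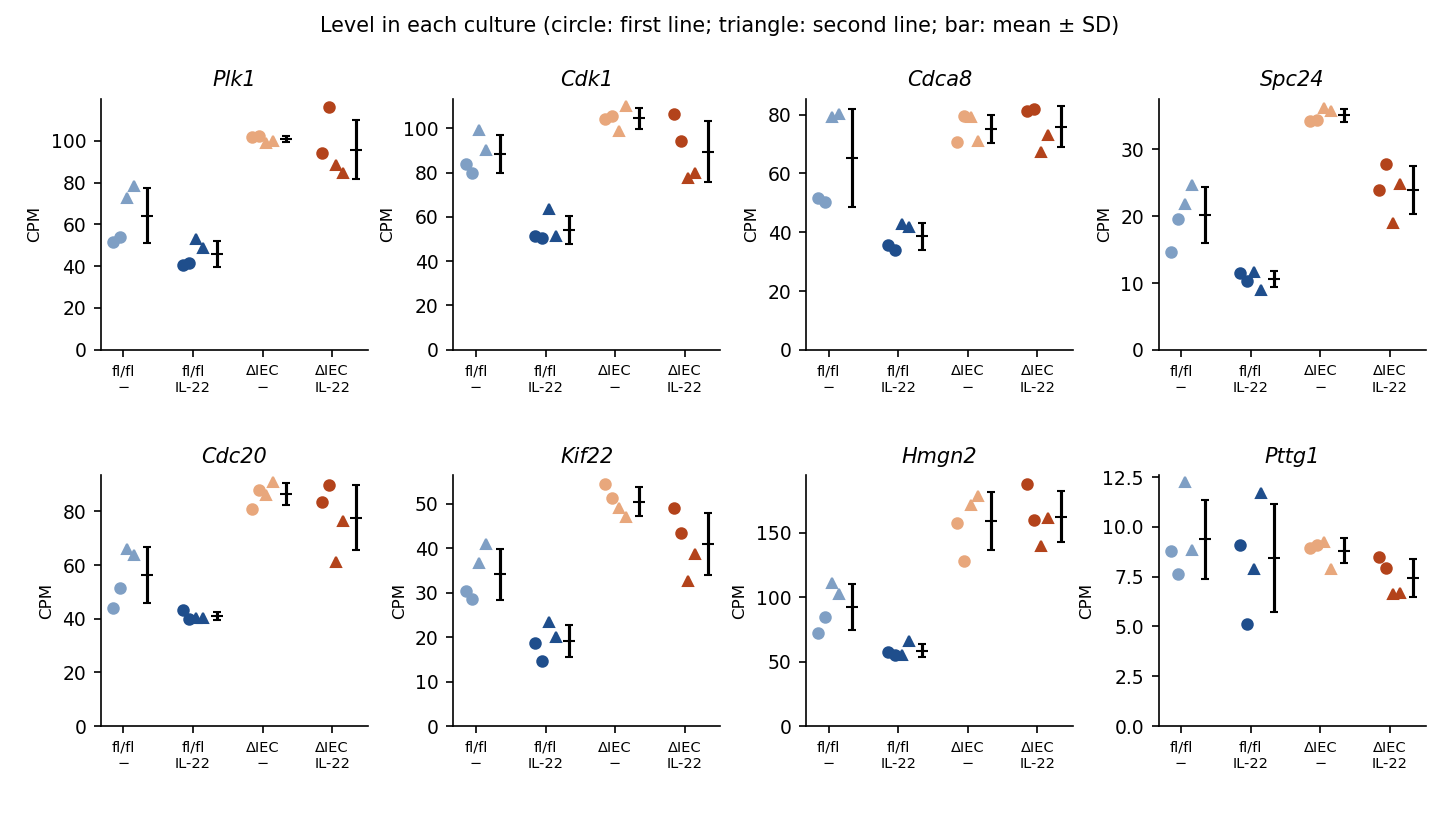
CPM of 8 members in each culture (circles first line, triangles second line, bars mean ± SD of 4), on axes that start at 0. Plk1, Cdk1, Cdca8, Spc24, Cdc20, Kif22 and Hmgn2 are lowest in IL-22–treated fl/fl cultures, with Hmgn2 at 58.4 ± 4.96 CPM there and 162 ± 19.7 CPM in treated ΔIEC cultures, while Pttg1 overlaps in all groups.

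The 7 members that build and move the spindle included 5 that fell with IL-22 in fl/fl organoids, and all 7 were higher in ΔIEC organoids under IL-22 (medians -0.66 and 0.86). Kif22, a chromosome-arm kinesin (ENSMUSG00000030677.8, chromosome 7 from 127027729 to 127042471, minus strand), was at 30.4, 28.6, 36.7 and 40.9 CPM in untreated and 18.6, 14.7, 23.5 and 20.1 CPM in treated fl/fl cultures. Its ΔIEC levels were 54.5, 51.4, 49.1 and 46.9 CPM untreated and 49.01, 43.5, 32.6 and 38.8 CPM treated. No untreated ΔIEC culture was as low as any fl/fl culture, and no treated fl/fl culture was as high as any other. Kif22 fell by 0.81 ± 0.15 in fl/fl organoids (adjusted p = 0.000444) and was 2.10-fold higher in ΔIEC under IL-22 (adjusted p = 3.95e-05). Kif4, a kinesin of the chromosomes and the midzone, was at 27.8, 28.6, 45.8 and 37.7 CPM and, treated, 30.9, 20.3, 28.7 and 23.97 CPM in fl/fl cultures. In ΔIEC cultures Kif4 was at 54.5, 51.9, 53.5 and 46.5 CPM and, treated, 50.6, 55.7, 44.7 and 54.4 CPM. Within each treatment the genotypes did not overlap, while the treatments overlapped within each genotype, with 0.59 ± 0.14 (adjusted p = 0.00695) without and 0.99 ± 0.15 (adjusted p = 5.68e-05) with IL-22. Hmmr was at 52.9, 60.99, 81.1 and 82.7 CPM and, treated, 36.4, 40.7, 47.1 and 44.9 CPM in fl/fl cultures. It had 80.9, 70.4, 77.2 and 63.96 CPM and, treated, 88.7, 72.4, 61.95 and 74.1 CPM in ΔIEC cultures. Only the treated fl/fl cultures stood apart, with -0.70 ± 0.14 for IL-22 in fl/fl (adjusted p = 0.000738) and 0.013 ± 0.14 in ΔIEC organoids (adjusted p = 0.96). Under IL-22 the motors Kif11 (0.86 ± 0.17) and Kif2c (0.88 ± 0.18) and the microtubule-binding Nusap1 (0.70 ± 0.19) and Ckap2l (0.74 ± 0.16) were also higher in ΔIEC organoids.

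Cytokinesis is represented by 6 members, of which 4 fell with IL-22 in fl/fl organoids and all 6 were higher in ΔIEC organoids under IL-22 (medians -0.54 and 0.70). Anln, anillin of the contractile ring (ENSMUSG00000036777.8, chromosome 9 from 22332012 to 22389188, minus strand), was at 38.6, 41.3, 57.1 and 57.8 CPM in untreated and 35.2, 31.1, 31.4 and 36.9 CPM in treated fl/fl cultures. It was at 59.9, 60.04, 64.3 and 60.6 CPM in untreated and 55.5, 56.8, 51.98 and 47.7 CPM in treated ΔIEC cultures. Treated cultures lay below untreated ones in each genotype, with -0.53 ± 0.12 in fl/fl (adjusted p = 0.00221) and -0.21 ± 0.12 in ΔIEC organoids (adjusted p = 0.2). Prc1 was at 67.2, 72.5, 106 and 100.3 CPM and, treated, 59.4, 50.2, 70.2 and 65.9 CPM in fl/fl cultures. It was at 111, 94.7, 105 and 96.4 CPM and, treated, 137, 112, 82.2 and 101 CPM in ΔIEC cultures, where the highest of the 16 values was that of treated replicate 1. Prc1 was 1.75-fold higher in ΔIEC under IL-22 (0.80 ± 0.15, adjusted p = 0.000631), and its adjusted p for IL-22 in fl/fl organoids was 0.0232, or 0.000191 with line as a block. Kif20a, the midzone kinesin that carries the passenger complex, was at 41.8, 50.8, 74.3 and 69.5 CPM and, treated, 31.3, 33.2, 36.98 and 45.8 CPM in fl/fl cultures. Its ΔIEC cultures had 84.4, 88.1, 83.6 and 77.7 CPM and, treated, 64.4, 68.5, 61.05 and 57.3 CPM. The ΔIEC groups did not overlap with each other and the fl/fl groups did, and the fitted values were -0.66 ± 0.15 in fl/fl (adjusted p = 0.00186) and -0.41 ± 0.14 in ΔIEC organoids (adjusted p = 0.0327, and 0.000382 with line as a block), with an interaction of 0.25 ± 0.20. In fl/fl organoids the values were -0.65 ± 0.15 (adjusted p = 0.00207) and -0.45 ± 0.13 (adjusted p = 0.0136) for the centralspindlin subunits Kif23 and Racgap1, and -0.55 ± 0.14 (adjusted p = 0.00542) for the RhoA activator Ect2.

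All 4 chromatin members fell with IL-22 in fl/fl organoids and were higher in ΔIEC organoids under IL-22 (medians -0.57 and 0.82). Hmgn2 (ENSMUSG00000003038.15, chromosome 4 from 133964738 to 133968650, minus strand) had the largest difference between genotypes with IL-22 of the list, and the next largest after Spc24 without it. It was at 72.2, 84.2, 111 and 102 CPM in untreated and 57.4, 55.4, 55.00 and 65.6 CPM in treated fl/fl cultures. In ΔIEC organoids it was at 158, 128, 172 and 179 CPM in untreated and 188, 159.6, 139.9 and 162 CPM in treated cultures. Every ΔIEC culture was above every fl/fl culture, and the 2 ΔIEC groups overlapped. Hmgn2 was 1.72-fold higher without IL-22 (0.78 ± 0.13, adjusted p = 0.000326) and 2.78-fold higher with it (1.48 ± 0.13, adjusted p = 3.99e-07). Mki67, the marker Ki-67, was at 218, 224, 288 and 292 CPM and, treated, 194, 164, 181 and 187 CPM in fl/fl cultures. It was at 394, 347, 374 and 316 CPM and, treated, 328, 309, 275 and 303 CPM in ΔIEC cultures. It fell by 0.49 ± 0.10 in fl/fl organoids (adjusted p = 0.000909), with -0.24 ± 0.10 in ΔIEC organoids (adjusted p = 0.0842). Hmgb2, a DNA-bending protein, was at 284, 274, 408 and 354 CPM and, treated, 212, 179, 235 and 224 CPM in fl/fl cultures. Its ΔIEC values were 431, 430.1, 464 and 414 CPM and, treated, 436, 392, 320.3 and 351 CPM. Top2a, the topoisomerase that untangles sister chromatids, was at 333, 362, 487 and 486 CPM and, treated, 302, 234, 324 and 305 CPM in fl/fl cultures. In ΔIEC cultures Top2a was at 594, 528, 521 and 502 CPM and, treated, 615, 494, 470.2 and 482 CPM. For both genes the treated fl/fl cultures lay below the untreated ones, and the ΔIEC groups overlapped. The fl/fl changes were -0.63 ± 0.12 (adjusted p = 0.000437) and -0.52 ± 0.13 (adjusted p = 0.00369), beside -0.21 ± 0.12 and -0.059 ± 0.12 in ΔIEC organoids.

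Each line on its own gave the direction of the IL-22 effect. In both fl/fl lines all 48 members had a lower mean log2 CPM with IL-22, against 55.0% and 53.4% of all genes. The medians were -0.50 in the first and -0.71 in the second line, against -0.045 and -0.034 over all genes. In the ΔIEC lines 38 and 48 members were lower, against 51.4% of all genes in each line. The medians there were -0.13 and -0.34, against -0.011 and -0.012 over all genes. Both treated cultures lay below both untreated cultures of the line in 44 and 47 members in the fl/fl lines, against 35.5% and 34.9% of all genes, and in 19 and 38 members in the ΔIEC lines, against 27.1% and 30.9%. In 37 members the change with IL-22 was lower in each fl/fl line than in each ΔIEC line, against 22.5% of all genes. The first ΔIEC line, whose treated cultures differed most from each other, had the 10 members that were higher with IL-22, up to 0.29 for Hmgn2.

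**Figure D5:**
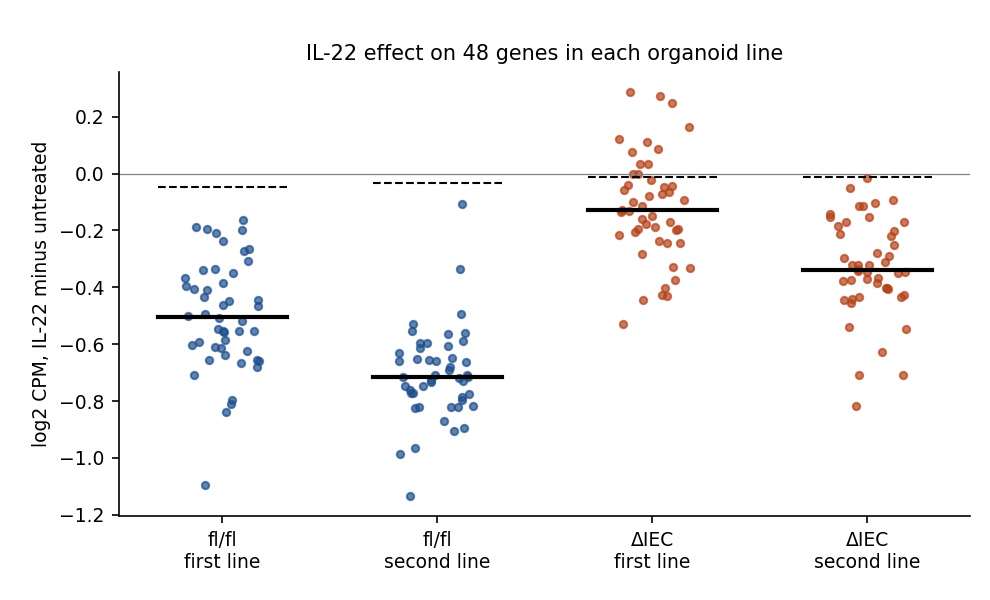
Each point is the mean log2 CPM of 1 member in the 2 IL-22–treated cultures of a line less that in its 2 untreated cultures, with a solid bar at the median of the 48 members and a dashed bar at the median of all tested genes. The member medians are -0.50, -0.71, -0.13 and -0.34 from left to right, and the points of the first ΔIEC line cross 0.

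The members span a wide range of levels, compared here as CPM per kilobase of exon. In untreated fl/fl organoids Hmgb2 was the highest at 110.0 ± 21.02 CPM per kilobase, followed by Cks2 at 83.1 ± 9.78 and Ube2c at 50.9 ± 8.24. Ccnb2 (46.8 ± 6.85), Top2a (46.3 ± 8.999) and Ccna2 (42.7 ± 9.38) were next and lay within each other's spread. The median member was at 13.2, and the lowest, Cdc25c, at 1.75 ± 0.509. Hmgb2 and Cdc25c were the highest and lowest in all 4 groups.

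Further lists of mitosis genes, which hold none of the 48, were described by the same counts. Beside them, 10.2% of all tested genes fell with IL-22 in fl/fl and 7.65% in ΔIEC organoids. Under IL-22, 9.91% of all tested genes were higher and 9.84% lower in ΔIEC than in fl/fl organoids. Among 32 further kinetochore and centromere genes 14 fell with IL-22 in fl/fl organoids. In ΔIEC organoids none passed, though 30 were below 0 (median -0.28), against 50.9% of all genes. Under IL-22 16 were higher in ΔIEC organoids (median 0.80). Among them were Bub3 (0.48 ± 0.082, adjusted p = 0.000208), a checkpoint subunit, Mis18a (0.86 ± 0.15), which licenses centromeres, and Knl1 (1.00 ± 0.18), the scaffold of the outer kinetochore. Of 13 condensin and cohesin genes 10 fell in fl/fl and 1 in ΔIEC organoids, and 10 were higher in ΔIEC under IL-22 (median 0.68), among them Cdca5, or sororin (0.94 ± 0.14, adjusted p = 6.75e-05), and the condensin subunits Ncapd2 (0.82 ± 0.13) and Smc2 (0.89 ± 0.15). For 20 further spindle genes these counts were 5, 1 and 7, with Kif20b (1.18 ± 0.18), Tacc3 (0.82 ± 0.15) and Kpna2 (0.59 ± 0.11) among the higher. For 15 further entry genes they were 5, 1 and 10, with Cks1b (0.62 ± 0.10), Cdca2 (0.93 ± 0.17) and Melk (0.93 ± 0.18), and for 17 genes of the anaphase-promoting complex 3, 0 and 9, with its subunits Anapc5 (0.67 ± 0.087) and Cdc27 (0.54 ± 0.093) and its enzyme Ube2s (0.63 ± 0.10). In these lists no gene was lower in ΔIEC under IL-22. Of 8 further cytokinesis genes 1 fell in fl/fl and none in ΔIEC organoids. Under IL-22 Cep55 (1.01 ± 0.16) and Arhgap11a (0.60 ± 0.10) were higher, and Kif13a (-0.32 ± 0.071) and Rhoa (-0.29 ± 0.078) lower, in ΔIEC organoids.

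Genes of DNA replication act in the phase before. For the lists in this paragraph, 10.2% of all tested genes fell with IL-22 in fl/fl and 7.65% in ΔIEC organoids. In ΔIEC against fl/fl organoids 3.78% of all genes were higher without IL-22, and 9.91% higher and 9.84% lower with it. Of 47 S-phase genes 33 fell with IL-22 in fl/fl organoids (median -0.76) and 18 in ΔIEC organoids (median -0.47), where 2 of the 48 mitosis genes fell, and E2f2 rose in both. Without IL-22, 10 were higher in ΔIEC organoids, and with it 25 were (median 0.65), among them Tyms, thymidylate synthase (1.45 ± 0.17, adjusted p = 6.83e-06), Mcm3 of the replicative helicase (0.94 ± 0.12) and Rpa1, which binds single-stranded DNA (0.89 ± 0.12). Whether the 2 lists differ in their response in ΔIEC organoids was not tested. G1 cyclins and inhibitors were split: of 25 tested, 6 were higher and 6 lower in ΔIEC organoids under IL-22. The higher ones included E2f8 (1.01 ± 0.16), E2f4 (0.45 ± 0.074) and Rbl1 (0.76 ± 0.15), and the lower ones the stress-response genes Gadd45a (-1.22 ± 0.15) and Trp53inp1 (-0.79 ± 0.14) and Rb1 (-0.50 ± 0.10).

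Markers of the organoid's cell types were described as well, and not all of them changed in the direction of the members. Their counts stand beside 10.2% of all tested genes that fell with IL-22 in fl/fl and 7.65% in ΔIEC organoids. In ΔIEC against fl/fl organoids 5.98% of all genes were lower without IL-22, and 9.84% lower and 9.91% higher with it. Of 12 stem cell markers 4 fell with IL-22 in fl/fl and 7 in ΔIEC organoids, with Olfm4 at -2.56 and -1.56 on the log2 scale, and their summed level with IL-22 was 1232 to 1356 CPM in fl/fl and 1277 to 1635 CPM in ΔIEC cultures. Single stem cell markers differed by genotype under IL-22, with 3 higher and 3 lower in ΔIEC organoids. Their log2 fold changes ran from -1.17 for Tnfrsf19 to 3.04 for Olfm4. The 48 members summed to 2070 to 2722 CPM in treated fl/fl and 3763 to 5022 CPM in treated ΔIEC cultures. Paneth cell markers, whose cells do not divide, summed to 5729 to 8228 CPM in untreated and 7455 to 9964 CPM in treated fl/fl cultures, and to 3209 to 4213 and 4077 to 4944 CPM in ΔIEC cultures, with 6 of 10 lower in ΔIEC without and 8 of 10 with IL-22. Goblet cell markers summed to 2058 to 3360 CPM in fl/fl and 1057 to 2021 CPM in ΔIEC cultures, with 5 of 8 lower in ΔIEC under IL-22. Of 12 enterocyte markers 7 fell with IL-22 in fl/fl and 5 in ΔIEC organoids, and their sum was 6960 to 8094 CPM untreated and 3219 to 3493 CPM treated in fl/fl, and 6512 to 8496 and 2870 to 4497 CPM in ΔIEC cultures. Enteroendocrine markers summed to 389 to 734 CPM in fl/fl and 233 to 526 CPM in ΔIEC cultures, and tuft cell markers to 14.2 to 37.2 CPM in all groups. Immune and stromal markers summed to no more than 13.3 CPM in any culture. The part of these markers' changes in those of the members was not tested.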

How the data were processed

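Small intestinal organoids were sequenced as bulk RNA in 16 cultures. Per the study's methods, reads were trimmed (cutadapt), mapped to GRCm38 (TopHat2) and assigned to genes (HTSeq) by the authors. The deposited table holds these raw counts without normalization. Rows that name no gene held 61.7% to 63.7% of a culture's total and were left out. Gene counts ran from 2135000 to 5574860 per culture, which sets the precision of low genes. No interval from counts alone is given.

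Genes with low counts were removed with edgeR's filterByExpr, which left 12559. Counts were scaled by TMM and tested, two-sided, with edgeR 4.0.16 quasi-likelihood tests (R 4.3.3) in a fit of 4 group means over all 16 cultures, with Benjamini-Hochberg adjustment across the 12559 genes and a threshold of 0.01. Log2 CPM used a prior count of 2. SD is over 4 cultures and SE is from the fit. The fitting code was tested on simulated data. Symbols came from a reference table that matched 49326 of 49585 gene IDs without version numbers (99.5%).

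Organoid line pairs the cultures by the labels. Deviations from group means correlated between treatments at 0.26 to 0.44 within a fl/fl line and 0.056 to 0.32 within a ΔIEC line, against -0.43 to -0.22 and -0.35 to -0.078 between lines. Deviations from a group's mean cancel out within the group, so the values between lines are not independent of those within lines. Alternatives were RLE scaling, no filter, a stricter filter, a line block, DESeq2 1.42.0, limma 3.58.1 voom with duplicateCorrelation on the line, the compared groups only, summed lines, and leaving out each culture and line. The members and lists were chosen with earlier results of these data known. Values in every culture are given for the 3 members of each role class with the smallest p in the comparison with the most calls, and for Mki67, Top2a, Foxm1, Plk1 and Aurkb. In other lists the 3 with the smallest p in each direction are named. Promoter sequences are from RefSeq (GRCm38.p6).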

Additional observations from a re-analysis of the deposited data

Results flagged for a closer look

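Among 96 groups of 4 cultures examined for a culture apart from the rest, 3 had a gap to the nearest culture that was large against the group's range, and chance gives about 1 in 20. The ratio was 0.893 for Cdk1 in IL-22–treated fl/fl replicate 3, which was high, 0.884 for Cdca3 in untreated ΔIEC replicate 1, also high, and 0.871 for Cdc20 in IL-22–treated fl/fl replicate 1, the highest of its group.

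The interaction of genotype and IL-22 passed the threshold, with organoid line as a block, in Ccnb1 (0.57), Cdca8 (0.77), Hmmr (0.72) and Hmgn2 (0.70 on the log2 scale). No member passed without the block in edgeR with the filter on low counts, or with the cultures of a line summed.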

How the results depend on the processing

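The medians of the members kept their sign under every alternative run, and no named member reversed. For IL-22 in fl/fl organoids the 30 calls became 19 with the compared groups only, 0 with the cultures of a line summed, 9 without the second fl/fl line and 17 to 40 when a single culture was left out (median -0.72 to -0.54). Of all genes, 999 of 12170 fell with the compared groups only, 1.35% with lines summed and 3.86% without the second fl/fl line. Without a single culture 7.44% to 10.8% of all genes fell. For IL-22 in ΔIEC organoids the 2 calls became 7 at an adjusted p under 0.05, 5 without the filter, 8 with limma-voom and duplicateCorrelation on the line (which changes both the test and the handling of line), 5 with the compared groups only, 0 with lines summed, 5 without the first and 5 without the second fl/fl line, 0 without either ΔIEC line and 0 to 3 without a single culture (median -0.30 to -0.18). Among all genes, 1599 of 12559 were lower at 0.05, 1124 of 25406 without the filter and 1305 of 12559 with limma-voom. With the compared groups only 893 of 11952 were lower, and with lines summed 250 of 13871. Without the first and second fl/fl line 1117 of 12852 and 1125 of 12785 were lower. Without a single culture 5.53% to 7.87% of all genes fell. For genotype without IL-22 the 11 calls became 27 at 0.05, 28 without the filter, 0 with lines summed, 0 without the first fl/fl line (median 0.20), 36 without the second (median 0.69), 2 and 5 without the first and second ΔIEC line, and 4 to 18 without a single culture (median 0.34 to 0.51). Of all genes, 1121 of 12559 were higher at 0.05, 748 of 25406 without the filter and 3 of 13871 with lines summed. For genotype with IL-22 the 42 calls became 2 with lines summed, 20 without the first ΔIEC line and 38 to 43 without a single culture (median 0.71 to 0.86). In these fits 0.404%, 3.11% and 6.92% to 10.7% of all genes were higher. The interaction had 0 calls, 3 without the filter, 0 with lines summed and 0 without any single culture (median 0.30 to 0.49). With organoid line as a replicate block the pairing gave 45 calls (median -0.65) in fl/fl, 11 (median -0.23) in ΔIEC organoids and 4 (median 0.42) for the interaction; it cannot be fitted for genotype, since lines lie within genotypes. Fewer samples were fitted where cultures or lines were left out or summed, and the cause was otherwise not tested. Of the values of named members 1242 kept their side of the threshold and 154 no longer passed it, 49 of these with lines summed. The lowest member had 13 counts, which limits its precision.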
